A study of Mus musculus with 2 samples.

Results

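The tetraspanin genes were read from the microarray comparison of laggard (lag) mutant and wild-type cerebrum. Probe sets were taken if the platform annotation paired them with a single gene and that gene was named Tspan with a number, or was Cd9, Cd81, Cd82, Cd151, Cd37 or Cd53. This gave 56 of the 45101 probe sets on the array and 25 of the 18194 genes that the annotation named. Cd63 also belonged to the rule and was not analysed here, nor was Tspan7. The RNA came from 1 lag mutant cerebrum sample and 1 wild-type cerebrum sample at postnatal day 14, with 1 array for each. The mutant carried the recessive lag mutation, a splice site change in the kinesin gene Kif14 that arose spontaneously among mice of mixed inbred descent and was then backcrossed to C57BL/6J, and the control was its littermate. The sex of the animals and the number of mice behind each sample are not given in the sources used here. With 1 array per genotype the spread between mice is unknown, no p-value is given, and every value below describes these 2 arrays.

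Tetraspanins are small proteins that span the membrane repeatedly and gather integrins, immunoglobulin-like proteins, proteases and one another into membrane microdomains. In the brain TSPAN2 and CD9 are known from oligodendrocytes, where both increase as the cells mature, CD81 is found on glia, and CD82 and TSPAN3 have also been described in the oligodendrocyte lineage. A subgroup, TspanC8 (Tspan5, Tspan10, Tspan14, Tspan15, Tspan17 and Tspan33), carries the protease ADAM10 to the cell surface, and CD37 and CD53 belong to leukocytes.

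Among members above background on both arrays, Cd9 and Tspan2 differed most, both lower in the mutant, and their promoters are shown for that reason. The sequences are the 250 bases before the RefSeq start of each gene on the gene's own strand in GRCm38.p6, chr3:102734520-102734769 on the plus strand for Tspan2 and chr6:125494761-125495010 on the minus strand for Cd9. Capitals mark each match to the E-box CANNTG, the letters bound by basic helix-loop-helix factors such as OLIG2.
Tspan2: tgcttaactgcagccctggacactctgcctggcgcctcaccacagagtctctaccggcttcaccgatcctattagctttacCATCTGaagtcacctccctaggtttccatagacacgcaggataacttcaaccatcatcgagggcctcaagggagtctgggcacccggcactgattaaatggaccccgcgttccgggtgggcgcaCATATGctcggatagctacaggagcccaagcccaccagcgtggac
Cd9: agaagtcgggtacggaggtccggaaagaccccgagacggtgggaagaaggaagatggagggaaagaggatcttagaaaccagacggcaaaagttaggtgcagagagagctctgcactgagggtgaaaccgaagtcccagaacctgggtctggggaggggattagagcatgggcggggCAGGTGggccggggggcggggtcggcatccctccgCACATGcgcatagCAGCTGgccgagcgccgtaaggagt
The Tspan2 window held 2 E-boxes and the Cd9 window 3. An E-box stood in 66.2% of the 32851 RefSeq promoter windows of this length, so its presence is common. The SOX core letters ACAAT or ACAAAG, present in 38.8% of windows, and the MYRF letters CTGGCAC or CTGGTAC, present in 5.93%, were searched on both strands and were in neither window. RefSeq gives Tspan2 a second start, not shown, whose window held 1 E-box and 1 SOX core. The window of Cd81, a member only 1.07-fold lower, was also searched and held 1 E-box and no SOX core or MYRF letters.

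Most of the family was measured. The signal is the MAS5 intensity of a probe set on a linear scale, scaled by the authors to the same trimmed mean on both arrays, and where a gene had several probe sets the brightest over both arrays stood for it. The background level was 46.9, the higher of the 95th percentiles that 83 probe sets of olfactory, vomeronasal and taste receptor genes reached on the arrays. A signal under it was raised to it before a ratio was taken, and the fold is then a lower bound. Of the 25 tetraspanin genes, 21 lay above background on both arrays, Tspan11 only in the wild type, and Cd37, Tspan1 and Tspan10 on neither. Of the 56 probe sets, 40 were above background on at least 1 array.

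**Figure D1:**
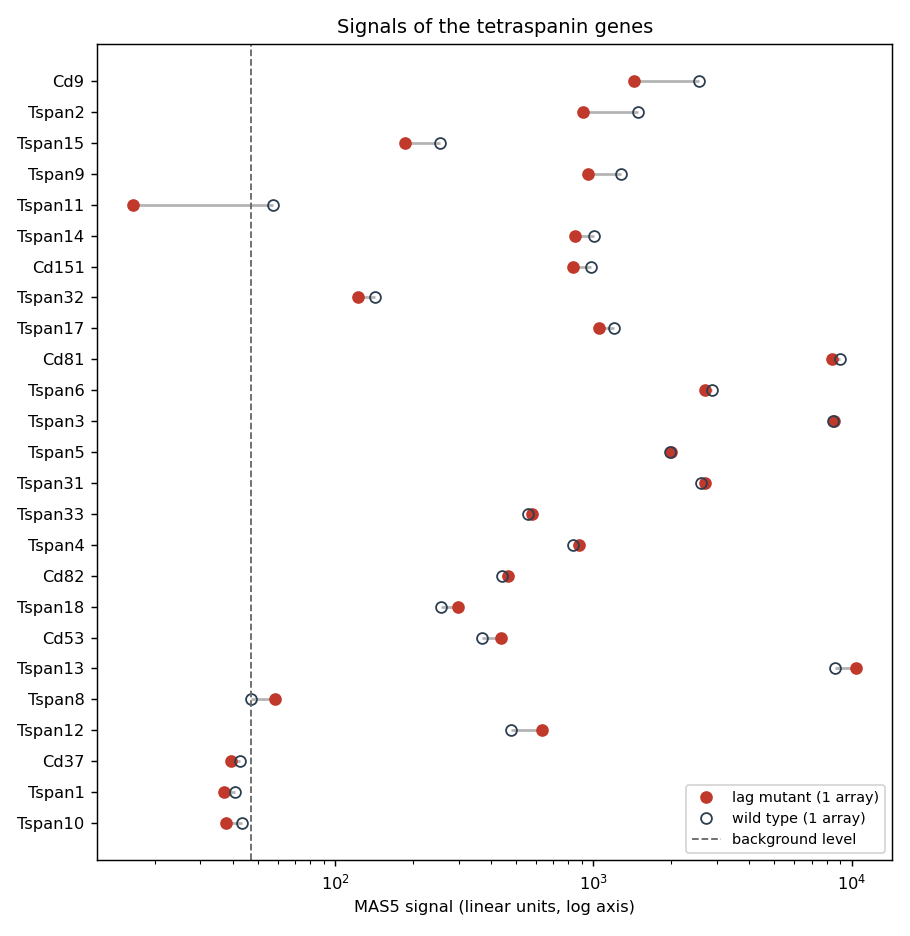
MAS5 signal (log axis) of each of the 25 tetraspanin genes on the lag mutant array (filled red) and the wild-type array (open), ordered from the lowest to the highest mutant over wild-type ratio, with the 3 genes under background on both arrays at the bottom. The dashed line is the background level of 46.9, and the gap is widest to the left for Cd9 and Tspan2 among genes above it on both arrays.

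None of the 21 tetraspanin genes above background on both arrays was 2-fold different, and for Tspan11 only a lower bound, under 2-fold, could be given. The count past 2-fold was 0 of 22 lower and 0 of 22 higher, where 1.04% of all 14007 genes above background were lower by 2-fold or more and 0.807% were higher by as much. At 1.5-fold, Cd9 and Tspan2 were lower, 2 of 22 (9.09%) beside 3.62% of all genes, and none was higher, beside 4.38%. Of the 20 other members, 9 were lower and 11 higher. Of all genes, 48.0% were lower. The median log2 ratio of mutant over wild type was -0.04 over the 22 tetraspanin genes, and that of all genes was 0.01. The SD of the log2 ratio was 0.32 over the 22 tetraspanin genes and 0.36 over all genes.

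Cd9, a tetraspanin of late oligodendrocyte differentiation and of the myelin sheath, had a signal of 1434 in the mutant and 2564 in the wild type. This was 1.79-fold lower in the mutant (log2 ratio -0.84), and it rested on the only Cd9 probe set. Of the 14007 genes, 211 had a lower log2 ratio. Among the 3276 brightest genes above background on both arrays, 10 did. The SD of the log2 ratio was 0.26 over these and 0.43 over the 3276 dimmest genes above background on both arrays.

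Tspan2, which is enriched in differentiating oligodendrocytes, was lower in the mutant by each of its 3 probe sets. The brightest had a signal of 911 in the mutant and 1490 in the wild type. The second had 651 in the mutant and 1121 in the wild type, and the third had 239 in the mutant and 333 in the wild type. The log2 ratios were -0.71, -0.78 and -0.48, with a mean of -0.66 ± 0.16 (SD, n = 3 probe sets of the same 2 arrays, which are not replicates of the genotype). That SD was close to the median of 0.19 found between probe sets of a gene over 6054 genes. By the brightest probe set the mutant level was 1.64-fold lower.

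The other tetraspanins described in this lineage differed little. Cd81, which is also abundant in astrocytes, had a signal of 8433 in the mutant and 9024 in the wild type, 1.07-fold lower. Tspan3, which binds the myelin claudin CLDN11, stood at 8546 in the mutant and 8500 in the wild type. Cd82 stood at 467 in the mutant and 444 in the wild type by its brighter probe set, and at 140 in the mutant and 105 in the wild type by the other. Of these 5 genes, only Cd9 and Tspan2 were therefore past 1.5-fold.

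Beside them, genes of the myelin sheath were far lower. All 10 measured myelin genes were at least 2-fold lower in the mutant, with a median log2 ratio of -2.59, and their signals summed to 2603 in the mutant and 35235 in the wild type. Cldn11, the partner of TSPAN3, had a signal of 201 in the mutant and 1168 in the wild type. All 10 genes on the precursor list were lower, 3 of them at least 2-fold, with a median of -0.82 and summed signals of 21264 in the mutant and 32631 in the wild type. Genes on this list ranged widely, from -4.20 for Gpr17, -2.85 for Sox10 and -1.03 for Cspg4 to -0.25 for Ptprz1. Between Cspg4 and Ptprz1 lay Olig2 at -0.89, Olig1 at -0.88 and Pdgfra at -0.76. The paper counts Gpr17, Sox10, Olig1 and Olig2 among genes that increase as oligodendrocytes mature, so the list does not mark precursors alone. The paper also uses OLIG2 and PDGFRα staining to mark precursors and undifferentiated oligodendrocytes. In younger brains it found no noticeable difference in these cells or in Olig2 and Pdgfra mRNA. The range of the precursor list also held genes of the myelin list, from Ugt8a (-4.00) and Mag (-3.84) to Opalin (-1.18). Cd9 (-0.84) and Tspan2 (-0.71) lay within that range and near the precursor median of -0.82. That alone does not set them with precursor genes, and which genes they follow was not tested. Cd9 and Tspan2 were both short of the smallest change on the myelin list, -1.18 for Opalin. In RNA of whole tissue, fewer cells of a type and less RNA per cell cannot be told apart. Genes of midbrain and hindbrain were lower too, all 7 measured of 10 listed, with a median of -1.29 and summed signals over the 10 of 648 in the mutant and 1689 in the wild type. En1, Hoxb3 and Hoxb5 were under background on both arrays. The part of tissue composition in the Cd9 and Tspan2 values was not tested.

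**Figure D2:**
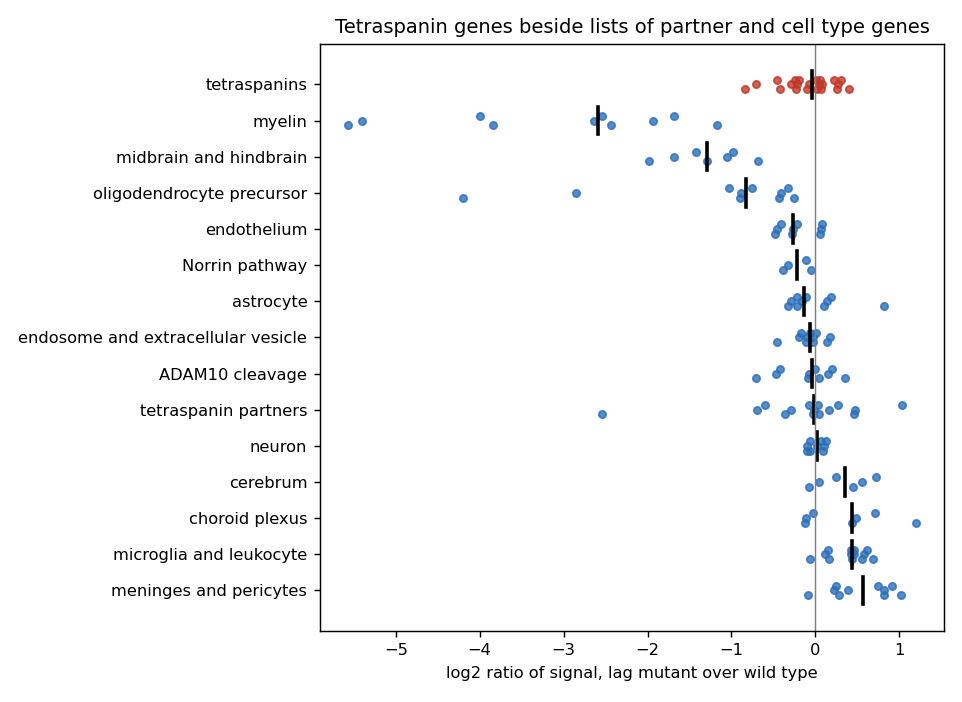
Log2 ratio of mutant over wild-type signal for the 22 tetraspanin genes above background (red) and for genes of 14 partner and cell type lists (blue), each point a gene and each black bar a median. The tetraspanins centre on -0.04, between the myelin list at -2.59 and the meninges and pericyte list at 0.57.

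Among the TspanC8 genes, Tspan15 was the lowest. It had a signal of 185 in the mutant and 254 in the wild type, 1.37-fold lower, by its only probe set. Tspan14 stood at 850 in the mutant and 1005 in the wild type, from a probe set that may also detect other transcripts. Tspan5 stood at 2003 in the mutant and 1980 in the wild type, and its 2 probe sets gave log2 ratios of 0.02 and 0.01.
Probe sets of the remaining pair did not all move one way. For Tspan17 the brighter probe set had 1046 in the mutant and 1201 in the wild type, while the other had 328 in the mutant and 301 in the wild type. For Tspan33 the brightest, which may also detect other transcripts, had 576 in the mutant and 556 in the wild type. The 4 together ranged from -0.37, by a probe set without that limit, to 0.16 on the log2 scale. The median log2 ratio of the 5 measured TspanC8 genes was -0.20.

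Their protease Adam10 had a signal of 4478 in the mutant and 3491 in the wild type, 1.28-fold higher. Of the 10 genes on the list of ADAM10, the related protease ADAM17 and proteins they cleave, all measured, Notch1 alone was past 1.5-fold, at 395 in the mutant and 643 in the wild type. The list had a median of -0.04, and none of its genes was 2-fold different.

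The listed partners of tetraspanins had a median of -0.02 over 15 genes, within a range from -2.54 to 1.03. Igsf8, the immunoglobulin-like protein that binds CD9 and CD81, had a signal of 976 in the mutant and 1482 in the wild type, 1.52-fold lower. Ptgfrn, a related CD9 and CD81 partner, stood at 1563 in the mutant and 1650 in the wild type. Among laminin-binding integrins, Itga7 was lower (122 in the mutant and 197 in the wild type), Itga6 was at 880 in the mutant and 1129 in the wild type, and Itga3 was at 419 in the mutant and 305 in the wild type. Itgb1, the common beta chain, differed little, at 996 in the mutant and 1014 in the wild type. The secreted glycoprotein gene Lgals3bp was the only partner 2-fold higher, at 261 in the mutant and 128 in the wild type, and Cldn11 the only one 2-fold lower.

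Cd151 and Tspan4, which bind laminin receptors and other integrins, lay close to 0. The brightest Cd151 probe set, which may also detect other transcripts, had 834 in the mutant and 977 in the wild type. The 5 above background ranged from -0.23 to 0.33 with a mean of 0.03 ± 0.20 (SD, n = 5 probe sets). The direction for Cd151 therefore depended on the probe set. Tspan4 stood at 876 in the mutant and 835 in the wild type.

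Tspan12, which joins the FZD4 receptor for Norrin in retinal vessels, had the highest ratio of the family. Its signal was 632 in the mutant and 478 in the wild type, 1.32-fold higher, from 1 probe set that may also detect other transcripts. The other genes of this pathway did not move with it. Fzd4 stood at 143 in the mutant and 178 in the wild type, and Ndp, which encodes Norrin, at 185 in the mutant and 242 in the wild type. All 4 measured pathway genes had lower mutant signals, but Lrp6 and Ctnnb1 differed little, at log2 ratios of -0.05 and -0.11. Lrp5 was under background on both arrays. The endothelial list had 6 of 9 genes lower, with a median of -0.27 and summed signals of 6368 in the mutant and 6992 in the wild type. The list of meninges and pericytes was higher for 9 of 10 genes, with a median of 0.57 and summed signals of 22199 in the mutant and 17305 in the wild type.

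Of the leukocyte members, Cd53 had a signal of 440 in the mutant and 369 in the wild type, 1.19-fold higher. A second Cd53 probe set was under background on both arrays, as were both of Cd37, the brighter at 39.3 in the mutant and 42.8 in the wild type. Tspan32, which is expressed in blood cells, stood at 123 in the mutant and 143 in the wild type by the only one of its 2 probe sets above background. The microglia and leukocyte list moved in the same direction as Cd53, with 12 of its 13 measured genes higher, a median log2 ratio of 0.44 against 0.25 for Cd53, and summed signals of 12717 in the mutant and 10395 in the wild type. Itgam was under background on both arrays. The part of cell numbers in the Cd53 value was not tested.

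The remaining members included Tspan9, lower in the mutant, and Tspan13, higher. Tspan9 had a signal of 951 in the mutant and 1278 in the wild type, 1.34-fold lower. Its second probe set had 9.86 in the mutant and 62.9 in the wild type, and because the mutant value lay under background it showed only a decrease of at least 1.34-fold. Tspan13 stood at 10431 in the mutant and 8619 in the wild type, 1.21-fold higher, and at 5289 in the mutant and 4957 in the wild type by its other probe set. Tspan18 was at 300 in the mutant and 257 in the wild type. Tspan31 stood at 2706 in the mutant and 2620 in the wild type by the brightest of its 3 probe sets. The log2 ratios of the 3 were 0.05, -0.02 and 0.51, the last from dim signals of 82.5 in the mutant and 57.8 in the wild type. The X-linked Tspan6 stood at 2711 in the mutant and 2868 in the wild type, and its 2 probe sets gave log2 ratios of -0.08 and 0.01.

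Tspan11, Tspan8, Tspan1 and Tspan10 had signals near or under background. The brightest of the 4 Tspan11 probe sets had 16.5 in the mutant and 57.2 in the wild type, at least 1.22-fold lower. Tspan8 was at 58.2 in the mutant and 46.98 in the wild type, the wild-type value barely above the background level. Tspan1 had 37.1 in the mutant and 40.9 in the wild type and Tspan10 had 37.6 in the mutant and 43.3 in the wild type, all under background, so no fold is given for them.

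**Figure D3:**
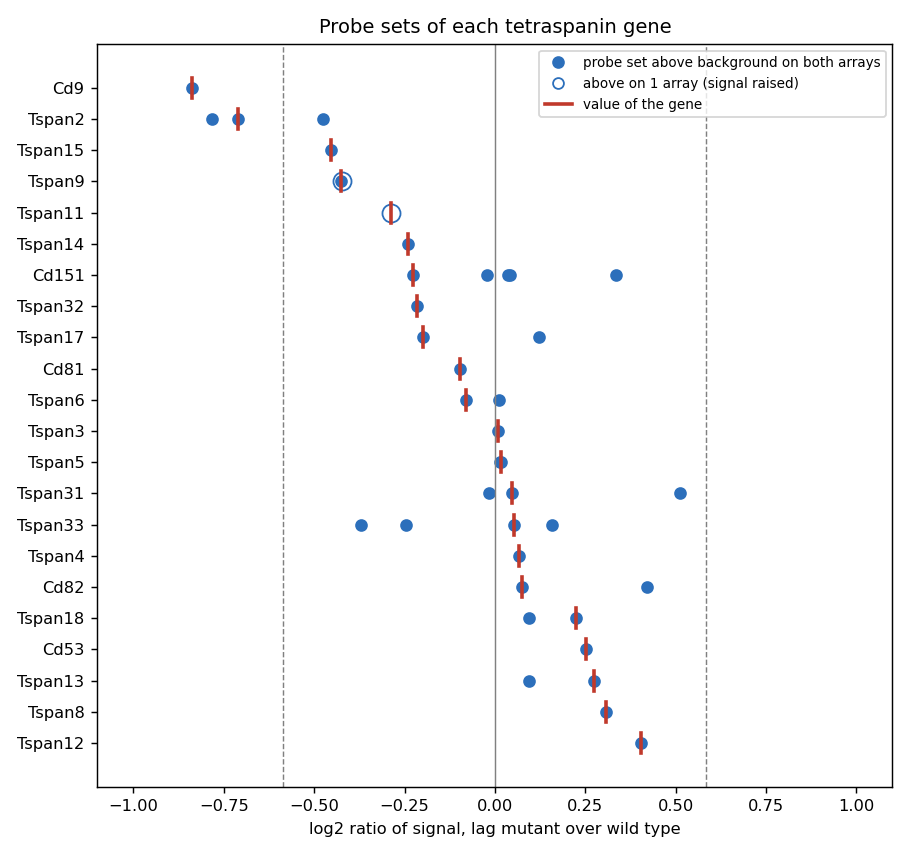
Log2 ratio of mutant over wild-type signal for each tetraspanin probe set above background on at least 1 array (40 circles, open where only 1 array was above), with a red bar at the value of the gene and dashed lines at 1.5-fold. All 3 probe sets of Tspan2 lie left of 0, while those of Cd151, Tspan6, Tspan17, Tspan31 and Tspan33 lie on both sides.

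Several tetraspanin genes lie next to one another in the RefSeq gene order. Tspan18 and Cd82 are neighbours on chromosome 2, at log2 ratios of 0.22 and 0.07. Tspan32 and Cd81 are neighbours on chromosome 7, at -0.22 and -0.10, and Cd151 and Tspan4, on the same chromosome with only Polr2l between them, were at -0.23 and 0.07. Tspan9 and Tspan11 are neighbours on chromosome 6 and were at -0.43 and at or below -0.29. None of the 25 genes lies on chromosome 1, where Kif14 and the partner gene Igsf8 are.

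The 4 listed tetraspanins with other names were outside the rule. Upk1a, a uroplakin, had a signal of 144 in the mutant and 86.4 in the wild type, 1.66-fold higher, and Upk1b stood at 124 on both arrays. Rom1, a photoreceptor gene, was at 50.7 in the mutant and under background in the wild type, and Prph2 was under background on both. Genes of endosomes and extracellular vesicles, where tetraspanins are abundant, had a median of -0.07 over 11 genes, none past 1.5-fold, with Lamp1 at 6106 in the mutant and 6226 in the wild type and Pdcd6ip at 377 in the mutant and 516 in the wild type.

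**Figure D4:**
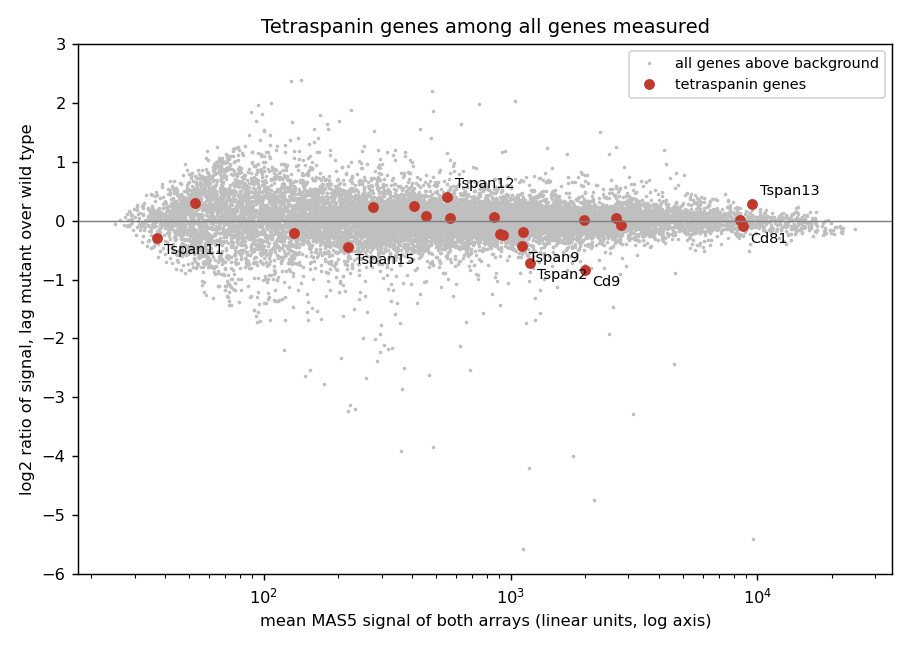
Log2 ratio of mutant over wild-type signal against the mean signal of both arrays (log axis) for all 14007 genes above background on at least 1 array (grey) and the 22 tetraspanin genes among them (red). Cd9 at -0.84 and Tspan2 at -0.71 are the lowest of the 21 members above background on both arrays, and the -0.29 of Tspan11 is an upper limit of its log2 ratio.

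Over all genes above background, 146 were at least 2-fold lower in the mutant and 113 at least 2-fold higher. Kif14 had a signal of 0.733 in the mutant and 6.85 in the wild type, both under background. The paper also reports no noticeable difference in Kif14 mRNA level, so this signal does not check the labels. Of 8 listed cerebrum genes 6 were measured, such as Neurod6 and Tbr1, and these 6 lay above background on both arrays, with a median log2 ratio of 0.35. Neurons, by 9 listed genes, had a median of 0.02 and astrocytes, by 10, of -0.14.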

How the data were processed

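RNA of postnatal day 14 cerebrum from 1 lag mutant and 1 wild-type sample had been hybridised to an Affymetrix whole-genome mouse array. The authors used MAS5 at its default settings, with global scaling, so each deposited value is a linear intensity for 1 probe set. Detection calls were not used here. MAS5 is also the tool in the submitters' processing notes. Leaving out the bottom and top 2% of probe sets, both arrays had a mean of 500.0.

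Genes were named from the platform annotation, which gave 34958 probe sets a single gene, and the 932 with several genes and the 9211 with none were left out. Symbols were updated by gene identifier through RefSeq (GRCm38.p6), which matched 34754. All 25 tetraspanin symbols stayed as annotated. The log2 ratio was that of mutant over wild type, taken after signals under 46.9 had been raised to it. The levels of the 2 arrays were 44.9 in the mutant and 46.9 in the wild type, and the higher was used on both. No test was run, since each genotype is 1 array, and the number of arrays limits the precision. All tetraspanin genes were named. From the lists of partners and cell types, genes of high signal or large difference were named, and some others after their values were seen. The members and lists were chosen with earlier results of these data known. Promoters came from the RefSeq table. The ratio and its count past 2-fold were tested on simulated data, with changes set only in genes well above background. The 1.5-fold count was not tested in this way. Alternatives changed the normalization, the probe sets used for a gene and the background level. Python 3.11.15, numpy 2.4.6, pandas 2.3.3 and matplotlib 3.10.9 were used.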

Additional observations from a re-analysis of the deposited data

How the results depend on the processing

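No paired analysis was possible because only 1 array was made per genotype. Cd9 and Tspan2 were at least 1.5-fold lower under all 8 alternatives. Their log2 ratios ran from -0.85 to -0.84 for Cd9 and from -0.72 to -0.66 for Tspan2. No member was 1.5-fold higher under any. Of all genes, 2.69% to 9.28% were lower and 2.82% to 12.2% higher by as much, depending on the alternative. By construction, 6 of the 8 could not change Cd9, which has a single probe set far above background, and 5 left the value of Tspan2 as it was. With no background level, 5.39% of all 18194 genes and 1 of the 25 members were at least 2-fold lower. That member was Tspan11, at -1.79 on the log2 scale. Its 57.2 in the wild type is near the level of 46.9, and it was at -0.58 with the level at the 90th percentile. The median over members ranged from -0.10 with no background level, over 25 members, to 0.01 with unique probe sets only, over 20. These medians are thus not over the same genes. Under the mean over probe sets, Cd151 (0.03) and Tspan33 (-0.10) took the other sign, and with unique probe sets only Cd151 (0.04), Tspan17 (0.12) and Tspan33 (-0.37) did. The latter setting left out every probe set with an "s", "x" or "a" suffix in its name, among them the brighter one of Tspan17. Quantile normalization changed the sign of no member, and centring only that of Tspan3, which lay within 0.01 of 0. Of 172 ratios of single members under these alternatives, 111 were identical to the value reported, since most settings do not act on a bright gene, and 6 differed from it by more than 0.25.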
